A study of Rattus norvegicus with 372 samples.

Results

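The transcription factor p53 is held at a low level in unstressed cells by the ubiquitin ligase Mdm2 and accumulates when DNA is damaged or when the link between both proteins is disturbed. It then raises the transcription of genes that stop the cell cycle, start apoptosis, alter RNA processing or limit p53 itself, and mRNAs of these target genes are read in toxicology as a trace of the response to genotoxic agents. Doxorubicin is an anthracycline that traps topoisomerase II on DNA and leaves double-strand breaks. The levels of 10 target genes of p53 are described here in primary rat hepatocytes treated with 14 chemicals, doxorubicin among them.

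The 10 genes were chosen by name, as Cdkn1a, Btg2, Ccng1, Mdm2, Bax, Bbc3, Eda2r, Tp53inp1, Phlda3 and Zmat3, and were looked up in the probe tables of both TempO-Seq assays. The WT assay holds 7 of them among 20946 genes, and the ST assay, which covers the S1500+ surrogate set, holds 6 of 2604 genes. Bbc3, a trigger of apoptosis that binds proteins of the Bcl-2 family, Eda2r, a receptor of the TNF receptor family, and Tp53inp1, a nuclear protein induced by p53, are in neither table and were not analysed. Zmat3 is in the WT table only. Each member is read by 1 probe per assay, and for Bax, Btg2, Mdm2 and Ccng1 that probe has the same number in both. In TempO-Seq a pair of detector oligos is ligated on the transcript and sequenced, so that a read marks the transcript at one place and does not depend on its length. Levels are given as counts per 1000000 reads of a well (CPM), and levels of different genes, which have different probes, are not set against each other. All 7 members passed the filter of the WT assay, a mean of at least 10 counts over all wells, and 5 of 6 passed it in the ST assay, where Phlda3 had at most 14 counts in a well.

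Hepatocytes were isolated from male Wistar rats, kept in a collagen sandwich and treated for 24 h in medium with 0.5% DMSO. Vehicle wells received the DMSO alone, and medium wells received neither DMSO nor a chemical. Batch 1 and batch 2 each came from 1 rat and from 1 library preparation and run, with 3 wells for each of the 28 treatments, so that rat and run cannot be told apart and p-values within a batch measure the spread between wells of 1 rat. The 3 vehicle wells of batch 1 shared a single plate (plate 4), whereas plates 2 and 3 of batch 2 each carried 3. Both assays were run on the same lysates and are repeat measurements, not further samples.

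WT libraries held 2709504 to 8948654 reads in batch 1 and 2289425 to 8975207 in batch 2, and ST libraries 558190 to 2009222 and 984283 to 2210264. Cdkn1a had the fewest WT reads of the members, between 6 and 267 in batch 1 and between 29 and 374 in batch 2. All 7 measured hepatocyte markers were detected. Their summed level in vehicle wells was 28701 to 37436 CPM, whereas the sum over 6 Kupffer cell markers was 28.8 to 48.8 CPM and that over 5 endothelial markers 1.67 to 3.81 CPM. The sum over 5 stellate cell markers was 206 to 301 CPM, mostly from Reln (median 234 CPM), and that over 4 cholangiocyte markers 33.1 to 49.0 CPM.

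The promoter windows of the members were searched for exact matches to a half-site of the DNA word that p53 binds. A p53 response element is built of half-sites of 10 bases with a fixed core, and the window searched here, on both strands, ran from 250 bases before the annotated start to 50 bases after it. RefSeq (GRCr8) promoters were at hand for 6 of the 10 members, namely Cdkn1a, Btg2, Ccng1, Mdm2, Phlda3 and Eda2r. A half-site lay in 2 of these windows, against 7.98% of the 33469 windows of all genes. Those windows are shown with the half-site in capitals, that of Cdkn1a at chr20:7150682-7150981 on the plus strand and that of Ccng1 at chr10:25684827-25685126 on the minus strand.
Cdkn1a: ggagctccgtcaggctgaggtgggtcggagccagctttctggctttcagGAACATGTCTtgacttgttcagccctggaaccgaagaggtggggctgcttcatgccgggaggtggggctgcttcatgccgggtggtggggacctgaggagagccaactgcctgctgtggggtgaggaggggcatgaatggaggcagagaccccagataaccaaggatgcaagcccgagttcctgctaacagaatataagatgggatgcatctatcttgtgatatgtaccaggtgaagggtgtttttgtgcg
Ccng1: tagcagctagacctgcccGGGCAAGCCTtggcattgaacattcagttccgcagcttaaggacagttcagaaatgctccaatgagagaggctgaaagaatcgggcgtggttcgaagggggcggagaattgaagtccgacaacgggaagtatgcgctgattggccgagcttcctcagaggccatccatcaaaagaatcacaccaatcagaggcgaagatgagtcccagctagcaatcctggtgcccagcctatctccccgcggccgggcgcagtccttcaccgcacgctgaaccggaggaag
The half-site of Cdkn1a ran from 201 to 192 bases before the start and that of Ccng1 from 232 to 223 bases before it. The windows of Mdm2, Btg2, Phlda3 and Eda2r held no exact match. Inexact half-sites and sites outside the window, such as in introns, were not searched. A match in this window describes the sequence and was not tested as a binding site.

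After 24 h with 2 µM doxorubicin, Cdkn1a, Mdm2 and Phlda3 were higher than with vehicle in both batches. Mdm2 rose 1.03 and 1.48 on the log2 scale (L2FC, fold change of treatment against the vehicle of the batch), Cdkn1a 1.49 and 1.41, and Phlda3 0.68 and 0.65. Bax was called in batch 2 only, and Btg2, Ccng1 and Zmat3 were called in neither batch of the WT assay. A call is an adjusted p under 0.05 by the quasi-likelihood test of edgeR with Benjamini-Hochberg adjustment over all 10189 genes tested in a batch. In these terms 3 of 7 members rose in both batches, where 1.87% of all genes did. In batch 1 alone 3 of 7 rose against 2.48% of all genes, and in batch 2 alone 4 of 7 against 9.72%, and no member fell. The median L2FC of the 7 members was 0.68 in batch 1 and 0.36 in batch 2, and that of all genes 0.00 and 0.01.

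Among the members that act on the cell cycle, Cdkn1a encodes p21, an inhibitor of cyclin-dependent kinases. In batch 1 its WT level was 11.1, 14.9 and 17.4 CPM in the wells with 2 µM doxorubicin and 4.60, 4.82 and 7.28 CPM with vehicle. In batch 2 it was 23.6, 25.4 and 26.2 CPM against 7.81 to 11.4 CPM in 6 vehicle wells (median 8.92). All treated wells lay above all vehicle wells in each rat, and both groups sat higher in batch 2. L2FC was 1.49 ± 0.30 (SE, adjusted p = 0.000236) in batch 1 and 1.41 ± 0.18 (adjusted p = 1.11e-09) in batch 2. With the first well of every group left out, the value of batch 1 was 1.17 (adjusted p = 0.0756) and the call in that batch was lost. The wells compared held 83 to 104 reads of Cdkn1a with doxorubicin and 27 to 40 with vehicle. By ST assay, which reads Cdkn1a with another probe, the level was 506, 604 and 680 CPM against 152, 187 and 219 CPM in batch 1, with L2FC 1.65 ± 0.21 (adjusted p = 5.52e-09). In batch 2 the ST wells had 736, 752 and 833 CPM against 256 to 364 CPM (L2FC 1.15 ± 0.16, adjusted p = 1.05e-08), again without overlap.

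Btg2 encodes an antiproliferative protein of the BTG/TOB family that acts on mRNA deadenylation. In batch 1 it was at 167, 183 and 203 CPM with 2 µM doxorubicin and at 116, 121 and 149 CPM with vehicle. In batch 2 it was at 174, 222 and 222 CPM against 216 to 281 CPM (median 223). The treated wells thus lay above the vehicle wells in batch 1 and among or below them in batch 2. Neither L2FC passed the test, at 0.62 ± 0.23 (adjusted p = 0.113) in batch 1 and -0.24 ± 0.22 (adjusted p = 0.476) in batch 2. The difference between the batches, -0.86 ± 0.32, was not called either (adjusted p = 0.215). ST values were alike, with L2FC 0.71 (adjusted p = 0.0617) and -0.17 (adjusted p = 0.638).

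Ccng1 encodes cyclin G1, which recruits the phosphatase PP2A to Mdm2, and its values depended on the assay. By WT assay the wells with 2 µM doxorubicin had 67.6, 114 and 152 CPM in batch 1 against 52.99, 57.7 and 113 CPM with vehicle, and 52.4, 68.9 and 125 CPM in batch 2 against 23.9 to 104 CPM (median 58.1). These groups overlapped, and L2FC was 0.70 ± 0.34 (adjusted p = 0.312) and 0.36 ± 0.37 (adjusted p = 0.543). By ST assay, with the same probe number and the same lysates, the treated wells had 1211, 1417 and 1436 CPM against 752, 804 and 906 CPM in batch 1, and 1583, 1685 and 1701 CPM against 776 to 1058 CPM in batch 2. There the groups did not overlap, and Ccng1 rose in both batches, by 0.70 ± 0.24 (adjusted p = 0.0386) and 0.76 ± 0.15 (adjusted p = 2.48e-05). Together with Cdkn1a and Mdm2 it made 3 of the 5 members tested in the ST assay that rose in both batches, where 3.3% of its 1760 genes did.

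The WT vehicle wells of batch 2 fell apart by plate for Ccng1. They had 84.8, 98.7 and 104 CPM on plate 2, which held doxorubicin, and 23.9, 25.6 and 31.4 CPM on plate 3. Medium wells of the same plates overlapped, at 33.8 to 47.5 and 36.6 to 48.7 CPM, as did the ST vehicle wells, at 776 to 919 and 858 to 1058 CPM. Plate 3 minus plate 2 gave an L2FC of -1.82 ± 0.40 that was not called (adjusted p = 0.097). Against the vehicle of its own plate alone, 2 µM doxorubicin had a WT L2FC of -0.28 for Ccng1 (adjusted p = 0.635), opposite in sign to the value over all vehicle wells. Phlda3 was the other member whose WT vehicle wells did not overlap between plates, at 52.9 to 64.8 and 42.6 to 48.8 CPM, with an L2FC of -0.36 (adjusted p = 0.202). Its few ST reads parted the other way, at 0 to 2.43 and 2.80 to 6.10 CPM. Between these vehicle wells 0 of 10189 WT genes were called. The share of all genes whose wells did not overlap is not given here, so these 2 members have no background.

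Mdm2 encodes the ubiquitin ligase that marks p53 for degradation and is itself induced by p53. In batch 1 it was at 148, 152 and 192 CPM with 2 µM doxorubicin and at 79.6, 81.9 and 95.9 CPM with vehicle. In batch 2 it was at 198, 198 and 246 CPM against 61.5 to 79.6 CPM (median 75.6). No treated well came near the vehicle wells in either rat. L2FC was 1.03 ± 0.19 (adjusted p = 3.87e-05) and 1.48 ± 0.15 (adjusted p = 2.68e-13), and the batches differed by 0.45 ± 0.25, which was not called (adjusted p = 0.586). By ST assay the treated wells had 874, 1041 and 1123 CPM against 385 to 418 CPM in batch 1 and 801, 818 and 1023 CPM against 242 to 346 CPM in batch 2, with L2FC 1.30 and 1.36.

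Of the members that promote cell death, Bax, whose protein forms pores in the outer mitochondrial membrane, was at 700, 789 and 810 CPM with 2 µM doxorubicin in batch 1 and at 611, 626 and 628 CPM with vehicle. In batch 2 it was at 775, 781 and 782 CPM against 544 to 645 CPM (median 576). The wells did not overlap in either batch, but the differences were small. L2FC was 0.40 ± 0.17 in batch 1 (adjusted p = 0.193, not called) and 0.36 ± 0.12 in batch 2 (adjusted p = 0.0186), and the ST values were 0.29 (adjusted p = 0.197) and 0.33 (adjusted p = 0.0343).

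Phlda3 encodes a pleckstrin homology domain protein that competes with the kinase Akt for membrane lipids. It was at 79.0, 85.7 and 91.6 CPM with 2 µM doxorubicin in batch 1 and at 52.4, 58.4 and 60.5 CPM with vehicle. In batch 2 it was at 78.8, 83.7 and 99.3 CPM against 42.6 to 64.8 CPM (median 50.9). The treated wells stood above all vehicle wells, with L2FC 0.68 ± 0.11 (adjusted p = 2.47e-06) and 0.65 ± 0.11 (adjusted p = 1.18e-06), and above those of the same plate (L2FC 0.48 in batch 2). Zmat3, a zinc finger protein that binds RNA and alters splicing, was at 57.5, 58.5 and 63.4 CPM against 54.4, 58.8 and 61.8 CPM in batch 1. In batch 2 it was at 66.4, 71.7 and 75.1 CPM against 58.8 to 67.4 CPM (median 63.5). The wells of both groups overlapped, and L2FC was 0.13 ± 0.14 (adjusted p = 0.728) and 0.10 ± 0.11 (adjusted p = 0.578).

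**Figure D1:**
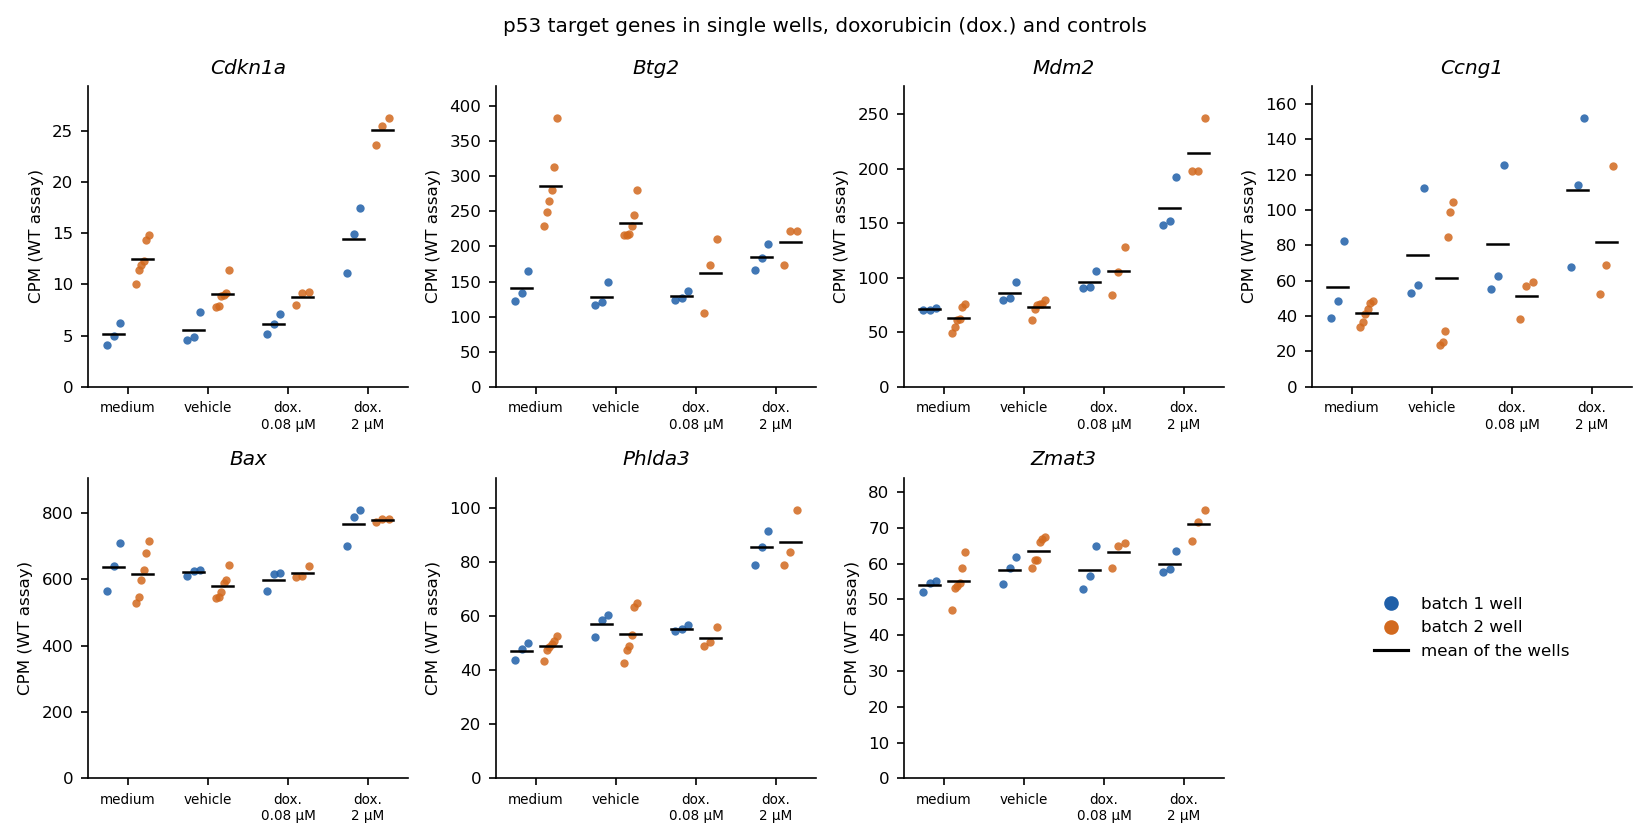
CPM of each member in single wells of the WT assay (vertical axis, from 0) with culture medium, vehicle, and 0.08 and 2 µM doxorubicin (dox., horizontal axis). Points are wells, blue for batch 1 and orange for batch 2, and black lines are means of the wells. Wells with 2 µM doxorubicin lie above all vehicle wells for Cdkn1a, Mdm2, Bax and Phlda3 in both batches, and the vehicle wells of Ccng1 in batch 2 form a lower and an upper group of 3 each.

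With 0.08 µM doxorubicin no member was called in either batch by edgeR or DESeq2, and by edgeR 2 members had an unadjusted p under 0.05, Mdm2 and Btg2 in batch 2. In that batch 2215 of 10189 genes had an unadjusted p under 0.05 by edgeR, so 2 of 7 members is near the background. For Cdkn1a the wells had 5.17, 6.15 and 7.08 CPM in batch 1 and 7.99, 9.12 and 9.26 CPM in batch 2, among the vehicle wells in both, with L2FC 0.22 and -0.13. Mdm2 was at 90.3, 91.2 and 106 CPM in batch 1 and at 84.5, 105 and 128 CPM in batch 2. All 3 wells of Mdm2 in batch 2 lay above its vehicle wells, but L2FC was 0.44 ± 0.15 (adjusted p = 0.0525), and in batch 1 it was 0.20 ± 0.19. Btg2 was at 124, 126 and 136 CPM in batch 1 (L2FC 0.04) and at 105, 173 and 210 CPM in batch 2 (L2FC -0.61 ± 0.22, adjusted p = 0.0662), below the vehicle wells of that batch. L2FC of Ccng1 was 0.15 and -0.34, and the values of Bax, Phlda3 and Zmat3 ran from -0.13 to 0.03. Over all genes, edgeR called 0 in batch 1, where 151 had an unadjusted p under 0.05 and DESeq2 also called 0, and in batch 2 it called 526 genes higher and 467 lower. Without the second well of this concentration in batch 2, which had the lowest Btg2 and the highest Mdm2 of the 3, these counts were 117 and 75.

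Set directly against each other, without any vehicle well, 2 µM exceeded 0.08 µM doxorubicin for the same 3 members in both batches, where 1.21% of all genes were higher. The difference in L2FC was 1.27 ± 0.29 and 1.54 ± 0.22 for Cdkn1a, with adjusted p of 0.00139 and 1.34e-07. It was 0.83 ± 0.19 and 1.05 ± 0.18 for Mdm2, and 0.68 ± 0.11 and 0.78 ± 0.13 for Phlda3. Bax differed by 0.41 and 0.36, with non-overlapping wells in both batches but adjusted p of 0.152 and 0.133. Btg2 (0.58 and 0.37), Ccng1 (0.54 and 0.70) and Zmat3 (0.10 and 0.20) were not called. By ST assay, Cdkn1a (1.41 and 1.47) and Mdm2 (1.02 and 1.04) were called in both batches, where 3.24% of its 1760 genes were higher. Ccng1 was called there in batch 2 only (0.64, adjusted p = 0.060, and 0.84, adjusted p = 0.000247), where 104 of the 1760 genes were higher.

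The response of the members to 2 µM doxorubicin was also compared between the rats. In a fit of both batches, edgeR called 0 of 7 members for a difference between batches, where 1.44% of 10191 genes were called, so that 0 of 7 is near the background and says little of the members. Batch 2 minus batch 1 was -0.86 ± 0.32 for Btg2, the only member with an unadjusted p under 0.05, and 0.45 ± 0.25 for Mdm2. It was -0.07 ± 0.33 for Cdkn1a and -0.02 ± 0.15 for Phlda3. Of all genes, 993 of 10191 had an unadjusted p under 0.05 for this difference by edgeR, so 1 of 7 members is near the background. DESeq2 also called 0 members. Over all 29 comparisons with vehicle, 2 of 203 pairs of member and comparison differed between the batches in the WT assay, where 2.36% of the pairs of all genes did, and 7 of 145 in the ST assay, against 4.2%.

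Other genes of the pathway, taken from a list of 32 further targets of p53, were described with 2 µM doxorubicin by the same counts. Of the 26 that could be tested, 4 rose in both batches, where 1.87% of all genes did, and no gene fell in both. Pmaip1, which encodes the apoptosis trigger Noxa, was at 6.81 to 10.6 CPM against 1.82 to 3.93 CPM in batch 1 and at 5.48 to 6.47 CPM against 1.03 to 2.67 CPM in batch 2 (L2FC 1.90 and 1.55). Gdf15, a secreted cytokine of stressed cells, was at 255 to 272 CPM against 94.5 to 107 CPM and at 172 to 179 CPM against 52.6 to 74.9 CPM (L2FC 1.52 and 1.29). Pml, the scaffold of nuclear bodies, had an L2FC of 0.56 and 0.81, and Ei24, a membrane protein of the endoplasmic reticulum, 0.53 and 0.79. In none of these 4 genes did a treated well reach down to a vehicle well. In batch 2 alone, 6 targets rose, against 9.72% of all genes, and 2 fell, against 10.6%. The median L2FC of the 26 was 0.16 in batch 1 and 0.02 in batch 2.

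Among genes of kinases that signal DNA damage and of proteins that act on the stability of p53, Atr was called in batch 2 and none of the others given here in either batch. In batch 2, 9.72% of all genes were called higher, so a single call is near the background. Atr had an L2FC of 0.83 in batch 2 (adjusted p = 3.79e-05) and -0.10 in batch 1, and L2FC was -0.21 and -0.23 for Atm, -0.16 and -0.23 for Chek1, and -0.09 and 0.09 for Chek2. Mdm4, a partner of Mdm2, was at 0.05 and 0.19, the deubiquitinase Usp7 at -0.17 and 0.16, and the ubiquitin ligase Rchy1 at -0.45 and -0.22. Top2a, which encodes the topoisomerase II of dividing cells, was at 2.68 to 4.67 CPM against 7.10 to 7.32 CPM in batch 1 and at 3.70 to 8.54 CPM against 2.51 to 8.07 CPM in batch 2, and neither L2FC was called (-0.96 and 0.30). With 0.08 µM it was at 15.0 to 27.0 CPM in batch 2 (L2FC 2.09, adjusted p = 5.79e-05) and at 2.96 to 6.97 CPM in batch 1 (-0.27, not called).

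Markers of Kupffer and endothelial cells were lower with 2 µM doxorubicin than with vehicle. The summed Kupffer cell markers were at 4.00 to 7.43 CPM in batch 1 and 4.51 to 7.86 CPM in batch 2, against 40.7 to 48.8 and 28.8 to 38.5 CPM with vehicle. Of the 5 that could be tested, 4 fell in both batches (Cd163, Clec4f, Csf1r and Vsig4), where 2.69% of all genes did. Vsig4 was at 0 to 0.167 CPM, and Cd68 was not called. The summed endothelial markers were at 0 to 0.482 CPM against 1.67 to 3.81 CPM, with Kdr at 0 in all 6 wells, but none passed the filter. The summed stellate and cholangiocyte markers were at 182 to 221 and 28.1 to 44.9 CPM, against 206 to 301 and 33.1 to 49.0 CPM. The 1 stellate and 2 cholangiocyte markers that could be tested were not called. The summed hepatocyte markers were at 22048 to 26490 CPM against 28701 to 37436 CPM. Of the 7 hepatocyte markers, Fgb rose in both batches (L2FC 0.99 and 0.76), where 1.87% of all genes did, and no marker fell in both. Alb (-0.75), Apoa1 (-0.92) and Cyp2e1 (-1.52) fell in batch 2 alone, where 10.6% of all genes fell. In such bulk lysates fewer cells of a type and less RNA per cell cannot be told apart, and the part of these shifts in the members' values was not tested. With 0.08 µM, the Kupffer sum was at 39.4 to 43.0 CPM in batch 1 and at 12.3 to 25.3 CPM in batch 2. There 4 of the 5 markers fell, as did 467 of 10189 genes.

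Over all 28 treatments in the WT assay, 37 of the 40 calls on members (92.5%) were at the higher concentration of a chemical, as were 89.4% of the calls on all genes. Of 98 pairs of a member and a treatment at the 14 higher concentrations, 27 were higher in both batches and 10 lower, in 13 treatments. Over all genes, 14.3% of such pairs were higher and 14.0% lower. Of 98 pairs at the lower concentrations, no pair was higher by edgeR in both batches and 3 were lower, in 2 treatments, against 1.93% and 1.45% of the pairs of all genes. All treatments of a batch share its vehicle wells, so these counts are not independent of each other. Scaling by library size alone, which moved the median L2FC of all genes by up to 0.47, gave 26 higher and 23 lower calls in place of 27 and 13, or 53.1% higher in place of 67.5%.

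**Figure D2:**
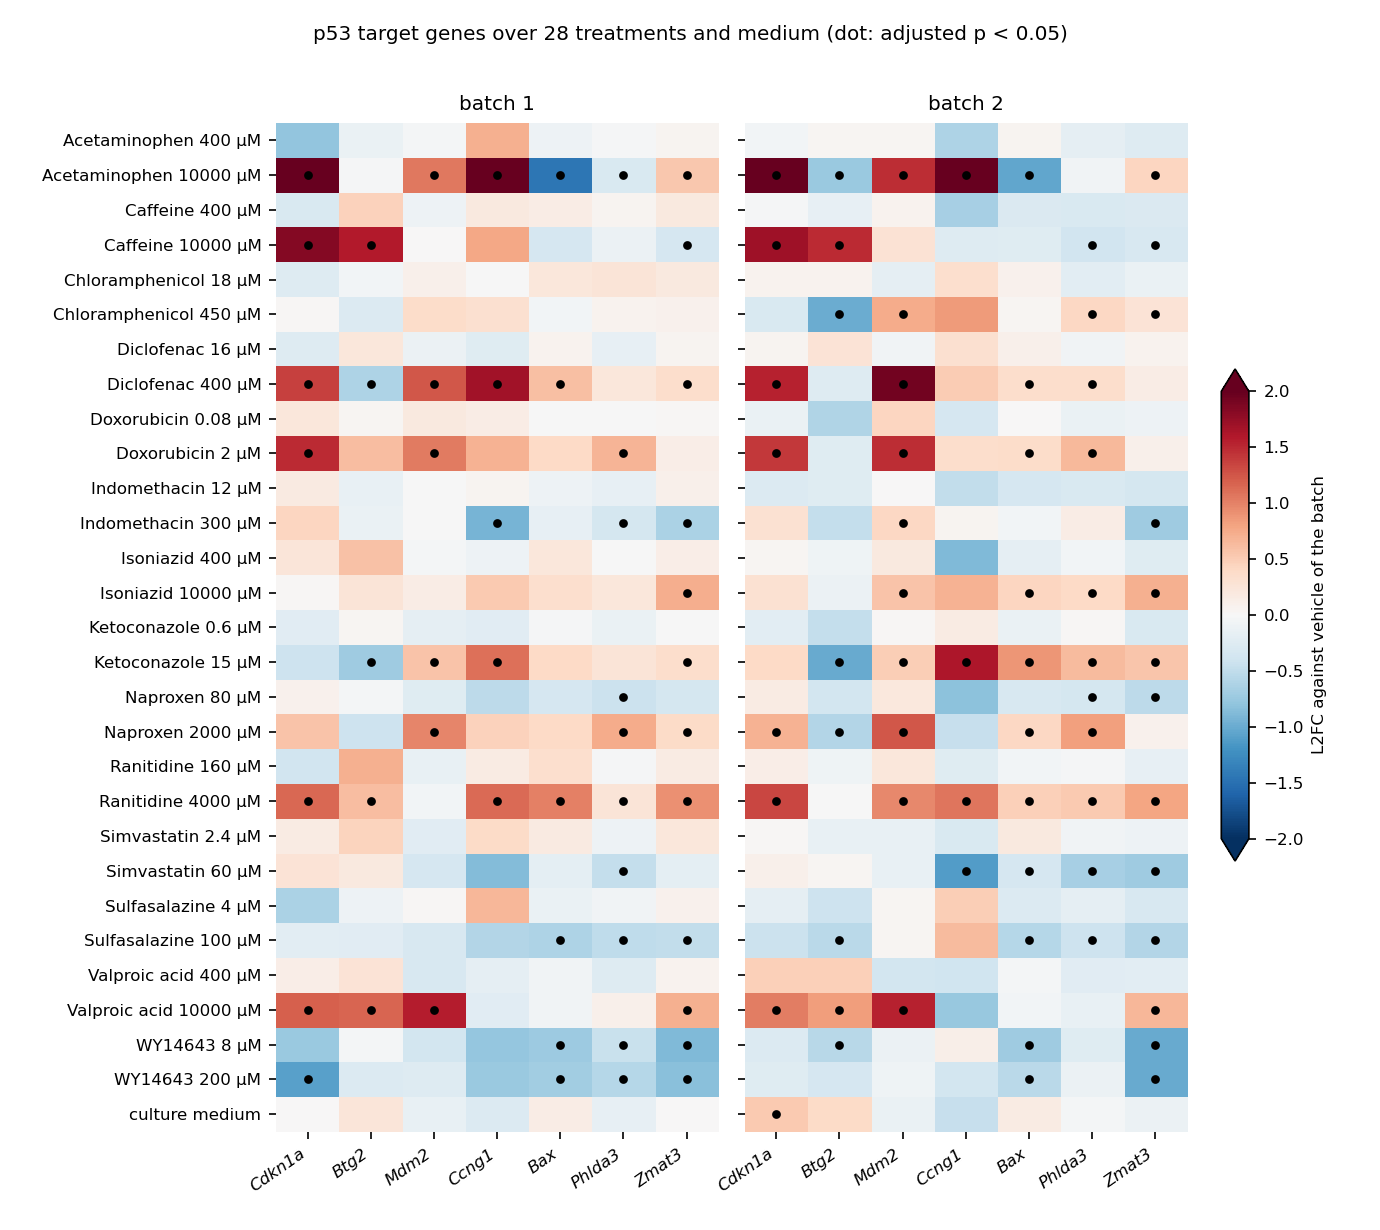
L2FC of the 7 members (columns) against the vehicle of the batch for 28 treatments and culture medium (rows), in batch 1 (left) and batch 2 (right), WT assay. Red is higher and blue lower, colours end at 2 and -2, and a dot marks an adjusted p under 0.05. Filled red cells sit mainly in rows of the higher concentrations, and the WY14643 rows and that of 100 µM sulfasalazine are blue for Bax and Zmat3.

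Ranitidine, acetaminophen and valproic acid each raised 4 or 5 members in both batches of the WT assay, and each also raised a large share of all genes. With 4000 µM ranitidine, a histamine receptor blocker, 5 of 7 members rose (Cdkn1a, Ccng1, Bax, Phlda3 and Zmat3), where 20.6% of all genes did. Of these 5 calls 3 were kept without replicate 2 or without replicate 3, the wells being numbered within a group in order of deposition, so the order of the 3 chemicals is not firm. With 10000 µM acetaminophen 4 rose (Cdkn1a, Mdm2, Ccng1 and Zmat3) against 30.4% of all genes, and Bax fell, as did 30.7%. With 10000 µM valproic acid, an antiepileptic drug that inhibits histone deacetylases, 4 rose (Cdkn1a, Mdm2, Zmat3 and Btg2) against 22.0%. With 400 µM diclofenac 3 rose (Cdkn1a, Mdm2 and Bax) against 25.2%. With 15 µM ketoconazole 3 rose (Mdm2, Ccng1 and Zmat3) against 12.1%, and Btg2 fell, as did 13.4%. Of the 3 rises 1 was kept without replicate 1 (Mdm2), without replicate 2 (Ccng1) and when scaled by library size alone (Ccng1). With 10000 µM caffeine Cdkn1a and Btg2 rose against 21.7% and Zmat3 fell against 20.5%, and with 2000 µM naproxen Mdm2 and Phlda3 rose against 14.9%. Isoniazid at 10000 µM raised 1 of 7 members by WT assay, Zmat3, where 6.27% of all genes rose. By ST assay, which has no Zmat3, it raised 3 of 5, namely Cdkn1a (0.87 and 0.49), Ccng1 (0.86 and 0.70) and Bax (0.60 and 0.56), where 10.5% of its genes rose. By WT assay doxorubicin at 2 µM raised 3 members, 2 of them without replicate 1, with the smallest share of all genes among the treatments that raised any member.

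By WT assay Cdkn1a was called higher in 6 treatments and lower in none in both batches. Its highest level was reached with 10000 µM acetaminophen, at 34.9, 41.0 and 44.3 CPM in batch 1 and 35.7, 40.6 and 42.8 CPM in batch 2 (L2FC 3.30 ± 0.29 and 2.55 ± 0.17). Then followed 10000 µM caffeine with 13.3, 16.7 and 20.8 CPM and 22.9, 25.1 and 32.9 CPM (L2FC 1.84 and 1.69). Diclofenac had 12.9, 14.9 and 16.6 CPM and 26.1, 27.3 and 32.2 CPM (1.37 and 1.54). These wells overlapped with those of 2 µM doxorubicin in both batches, whereas all acetaminophen wells stood above them. Valproic acid (L2FC 1.19 and 1.03) and ranitidine (1.14 and 1.33) came next. The lowest L2FC in batch 1 was -1.08 with 200 µM WY14643, at 1.70, 2.17 and 2.28 CPM (adjusted p = 0.0156), and -0.24 in batch 2, which was not called. Medium without DMSO held 9.98 to 14.9 CPM in batch 2 (median 12.1), partly above the vehicle wells, and gave the only call on a member in medium by WT assay (L2FC 0.53 ± 0.16, adjusted p = 0.015, against 0.01 in batch 1). The ST assay also called Cdkn1a in medium in batch 2 (0.44) and no other member. In both batches medium raised 0 members, with 1.05% of all genes by WT assay and 1.25% by ST assay. The share of all genes in batch 2 alone is not given here, so the calls of that batch have no background. The mean level ran over a 19.5-fold range between conditions in batch 1 and a 6.24-fold range in batch 2.

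Mdm2 was also called higher in 6 treatments and lower in none by WT assay. The ST assay called it higher in the same 6, and lower with 8 µM WY14643 (-0.63 and -0.39), where 17.4% of its genes fell and where the WT values were -0.36 and -0.11 and not called. With 10000 µM valproic acid it was at 257, 291 and 320 CPM in batch 1 and at 201, 285 and 292 CPM in batch 2 (L2FC 1.58 and 1.54), and with 400 µM diclofenac at 197, 212 and 219 CPM and at 277, 297 and 338 CPM (1.24 and 1.93). All diclofenac wells stood above those of 2 µM doxorubicin in both batches, and the valproic acid wells did so in batch 1 and overlapped with them in batch 2. With 2000 µM naproxen Mdm2 was at 152, 165 and 180 CPM and at 144, 154 and 210 CPM (0.97 and 1.25), and with 10000 µM acetaminophen at 123, 133 and 137 CPM and at 139, 148 and 172 CPM (1.06 and 1.48). Ketoconazole gave the smallest of the calls, at 0.57 and 0.49, and this call was lost when scaled by library size alone or without replicate 2. Ranitidine split the rats. Mdm2 was at 64.3, 67.3 and 91.6 CPM in batch 1 (L2FC -0.05), where 2 of the 3 wells lay below all vehicle wells and 1 among them, and at 105, 135 and 170 CPM in batch 2, above all of them (L2FC 0.97).

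**Figure D3:**
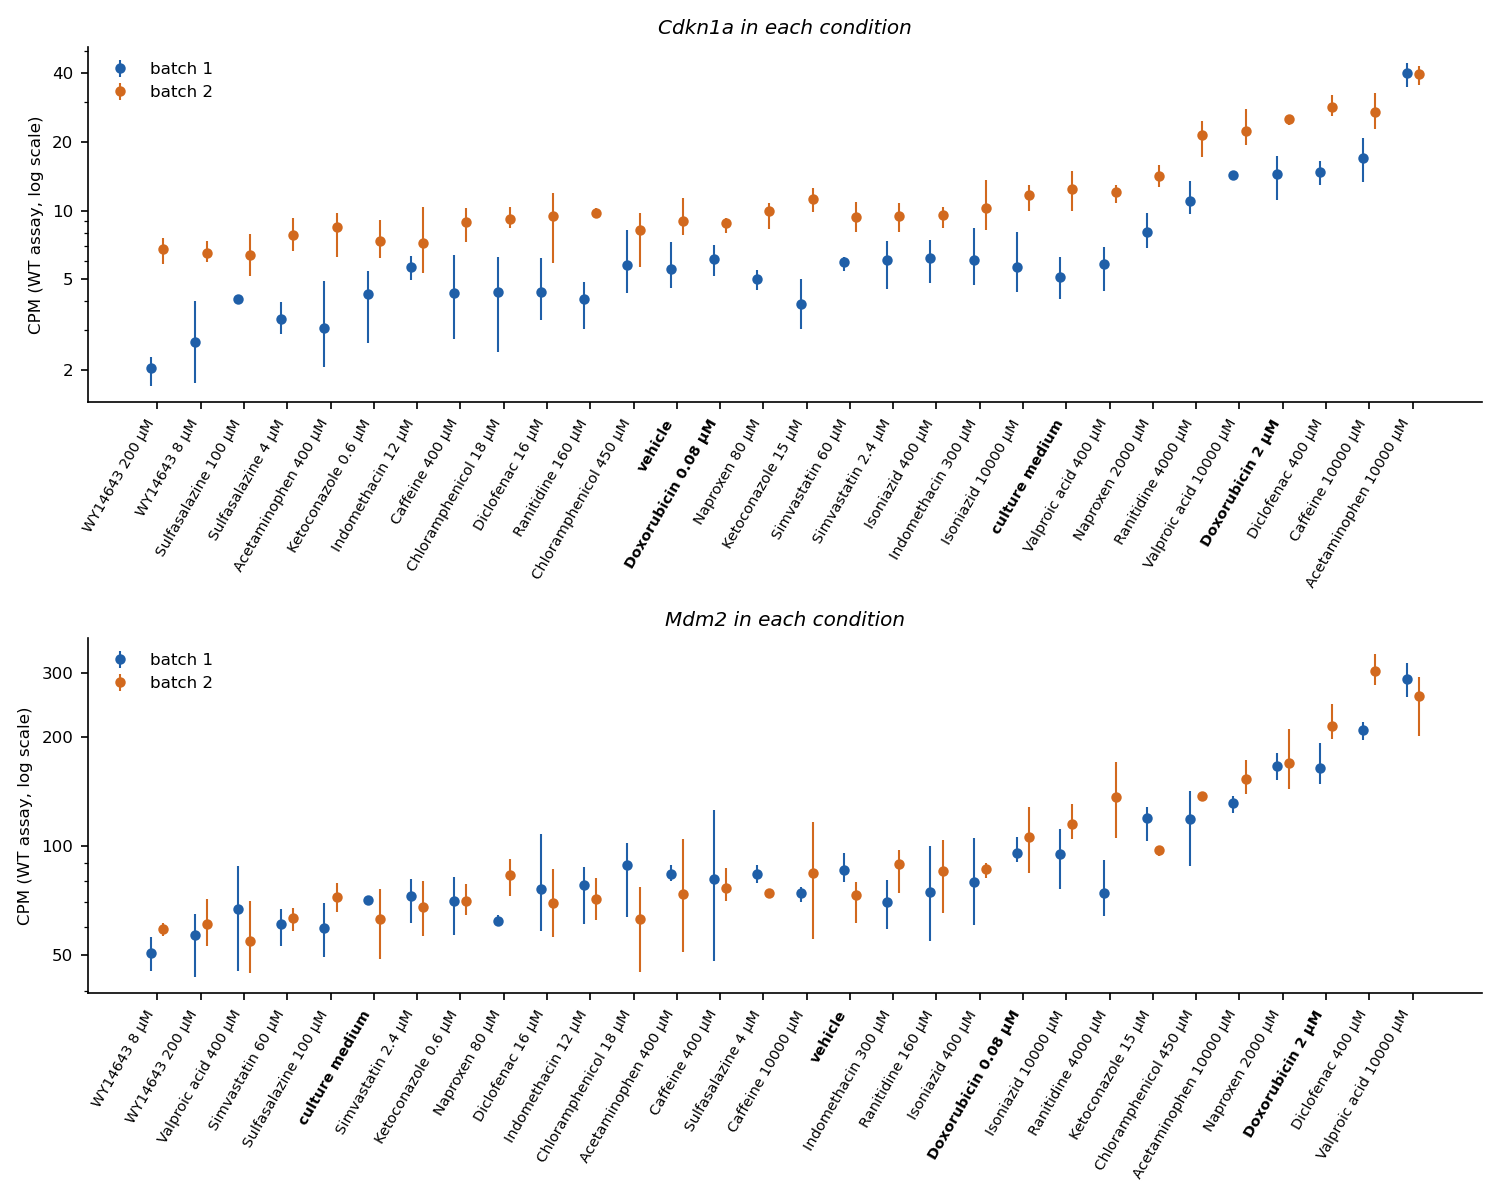
Level of Cdkn1a (top) and Mdm2 (bottom) in CPM of the WT assay, on a log scale, in each of the 30 conditions, ordered by the mean of both batches. Points are means of 3 wells (6 in the vehicle and medium of batch 2), blue for batch 1 and orange for batch 2, and lines run from the lowest to the highest well. Cdkn1a ends with acetaminophen 10000 µM, where the batches meet near 40 CPM, and Mdm2 with diclofenac 400 µM and valproic acid 10000 µM. For Cdkn1a, 2 µM doxorubicin stands with caffeine and diclofenac, below acetaminophen in both batches.

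Ccng1 had its highest level with 10000 µM acetaminophen as well, at 199, 491 and 540 CPM in batch 1 and at 193, 281 and 528 CPM in batch 2 (L2FC 2.91 ± 0.36 and 2.90 ± 0.35). The wells of this probe were widely spread, yet none reached down to vehicle. By WT assay Ccng1 rose in 3 treatments in both batches, the others being ketoconazole (1.10 and 1.62) and ranitidine (1.13 and 1.08), whose wells overlapped with vehicle in 1 and both batches. The call with ketoconazole was lost without replicate 1 and that with ranitidine without replicate 2. With vehicle of the same plate only, ranitidine gave 0.44 in batch 2 and was no longer called (adjusted p = 0.320). By ST assay Ccng1 rose in 6 treatments, the same 3 with diclofenac, isoniazid and doxorubicin, and fell with 200 µM WY14643, as did 19.4% of its genes. The ST wells with acetaminophen had 3096, 3190 and 3835 CPM in batch 1 and 4233, 4682 and 5147 CPM in batch 2, far above vehicle, and those with 200 µM WY14643 had 306, 378 and 384 CPM and 375, 403 and 419 CPM, all below vehicle (L2FC -0.65 and -0.66).

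Btg2 and Zmat3 did not move with doxorubicin in both batches but with other chemicals. Btg2 was highest with 10000 µM caffeine, at 294, 318 and 380 CPM in batch 1 and at 436, 558 and 819 CPM in batch 2 (L2FC 1.58 ± 0.24 and 1.49 ± 0.20), followed by valproic acid at 306, 311 and 367 CPM and at 399, 417 and 686 CPM (1.17 and 0.83). All of these wells exceeded vehicle. It fell with ketoconazole, to 66.7, 75.7 and 78.6 CPM and to 86.8, 115 and 128 CPM (-0.71 ± 0.24 and -1.01 ± 0.22). That call was lost without replicate 2, and the call with valproic acid without replicate 1.

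Zmat3 rose in 5 treatments and fell in 5. Its largest L2FC came with ranitidine, at 90.4, 93.4 and 115 CPM in batch 1 and at 97.9, 103 and 110 CPM in batch 2 (L2FC 0.92 and 0.78). Valproic acid (0.71 and 0.66) and isoniazid (0.72 and 0.72) came next, both with all wells above vehicle. It rose less with acetaminophen (0.55 and 0.43), where its wells overlapped with vehicle. In batch 2 its mean was 63.3 CPM with acetaminophen and 63.5 CPM with vehicle, before the scaling of the fit. The call was lost when scaled by library size alone or without the third well of each group, and its sign changed in an alternative. Zmat3 also rose less with ketoconazole (0.35 and 0.55), a call that was lost in 5 of 8 alternative settings, leaving out replicate 1, 2 or 3 among them. The agonist of PPARα, WY14643, gave the lowest levels of Zmat3, at 22.4, 22.7 and 27.8 CPM in batch 1 and at 23.5, 28.7 and 29.8 CPM in batch 2 with 8 µM (-0.88 ± 0.14 and -1.01 ± 0.12). With 200 µM it was at 23.4, 25.3 and 29.5 CPM and at 26.2, 26.9 and 31.2 CPM (-0.83 and -1.002), so both concentrations overlapped. Zmat3 also fell with 300 µM indomethacin (-0.63 and -0.72, where 14.3% of all genes fell), 100 µM sulfasalazine (-0.50 and -0.58) and caffeine (-0.33 and -0.32). The call with indomethacin was kept in all 8 alternative settings, and that with caffeine was lost in 4, without the filter and without replicate 1, 2 or 3.

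Bax rose in 2 treatments and fell in 4 in both batches of the WT assay. The ST assay called the same 4 lower and 5 higher, the same 2 with isoniazid, naproxen (0.61 and 0.54, where 18.8% of its genes rose) and ketoconazole. With ketoconazole it rose in batch 2 alone (L2FC 0.89, adjusted p = 7.72e-10), against 0.40 in batch 1 (adjusted p = 0.0649), and by ST assay in both (0.58 and 0.99, where 16.3% rose). It rose with ranitidine, at 989, 1069 and 1309 CPM in batch 1 and at 658, 797 and 848 CPM in batch 2 (L2FC 1.00 ± 0.17 and 0.48 ± 0.12), and with diclofenac (0.60 and 0.35), without overlap with vehicle. The call with ranitidine was lost without replicate 3, and that with diclofenac without replicate 2 or 3. It fell most with acetaminophen, to 152, 170 and 181 CPM and to 197, 201 and 234 CPM (-1.45 ± 0.18 and -1.05 ± 0.13), in the wells where Cdkn1a and Ccng1 were highest. WY14643 lowered Bax and Zmat3 at both concentrations, where 14.2% of all genes fell with 8 µM and 13.9% with 200 µM. Bax was at 244, 287 and 332 CPM and at 257, 308 and 356 CPM with 8 µM (-0.73 and -0.72), below every vehicle well. Sulfasalazine at 100 µM lowered Bax (-0.62 and -0.57), Phlda3 and Zmat3, or 3 of 7 members, where 5.27% of all genes fell. Without replicate 1 the calls on Bax and Zmat3 were lost and 1 was kept, and without replicate 2 that on Phlda3 was lost.

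Phlda3 had its highest level with 2000 µM naproxen, at 86.8, 96.6 and 102 CPM in batch 1 and at 88.7, 89.8 and 93.4 CPM in batch 2 (L2FC 0.74 ± 0.11 and 0.82 ± 0.11), which overlapped with the wells of 2 µM doxorubicin. With 80 µM naproxen it was below vehicle, at 33.3, 34.7 and 42.1 CPM and at 40.9, 41.1 and 41.3 CPM (-0.42 and -0.35), where 1.09% of all genes fell. The call at 80 µM was lost in 4 of 8 alternative settings, without the filter and without replicate 1, 2 or 3, and the direct difference between the concentrations was not tested. Simvastatin at 60 µM gave 33.0, 37.6 and 40.0 CPM and 26.3, 32.7 and 38.3 CPM (-0.48 and -0.66), where 3.2% of all genes fell, a call that was lost without the filter. The fall with sulfasalazine (-0.51 and -0.42) was not called in batch 2 against vehicle of the same plate (-0.22, adjusted p = 0.123). The rise with ranitidine was small (0.26 and 0.52), its wells overlapped with vehicle in batch 1, and the call was lost in 5 of 8 alternative settings.

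With 450 µM chloramphenicol no member was called in both batches of the WT assay by edgeR, where 2.47% of all genes were higher in both and 4.78% lower. In batch 2 Mdm2 (0.74), Phlda3 (0.41) and Zmat3 (0.28) rose, against 15.9% of all genes, and Btg2 (-0.99) fell, against 16.6%. Of the 40 calls on members in both batches, 23 were kept in all 8 alternative settings tried, 17 of 27 higher and 6 of 13 lower. The ST assay, run on the same lysates, could test 24 of the 40, and all 24 were called there with the same sign. How many calls on all genes were kept in these settings or by ST assay is not given here. Both counts therefore describe the calls and set the members apart from no other genes.

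The plates limit how far these levels can be read. Acetaminophen, chloramphenicol, indomethacin, ketoconazole, sulfasalazine and WY14643 were on a plate without vehicle in batch 1, so plate and treatment cannot be told apart there. In batch 2 every chemical had vehicle on its plate, and 2 of the 40 calls, Ccng1 with ranitidine and Phlda3 with sulfasalazine, were lost when that vehicle alone was used. Cell type markers moved in these wells too, and their part in the members' values was not tested. The summed hepatocyte markers were at 5836 to 7901 CPM with diclofenac and at 10624 to 15733 CPM with ranitidine, against 28701 to 37436 CPM with vehicle.

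L2FC of a member in the WT and the ST assay can be set side by side over the 29 comparisons with vehicle, which share lysates and vehicle wells. Pearson's r was 0.974 and 0.991 for Mdm2, 0.969 and 0.977 for Btg2, and 0.956 and 0.966 for Bax in batch 1 and 2. Cdkn1a, read by different probes, had 0.940 and 0.927, and in batch 1 all 29 ST values were above the WT values. Ccng1 had 0.913 and 0.762, the widest gap being 1.35 for 100 µM sulfasalazine in batch 2. For that treatment the WT value was 0.63 against all vehicle wells (adjusted p = 0.150) and 1.81 against those of its plate (adjusted p = 0.000176).

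**Figure D4:**
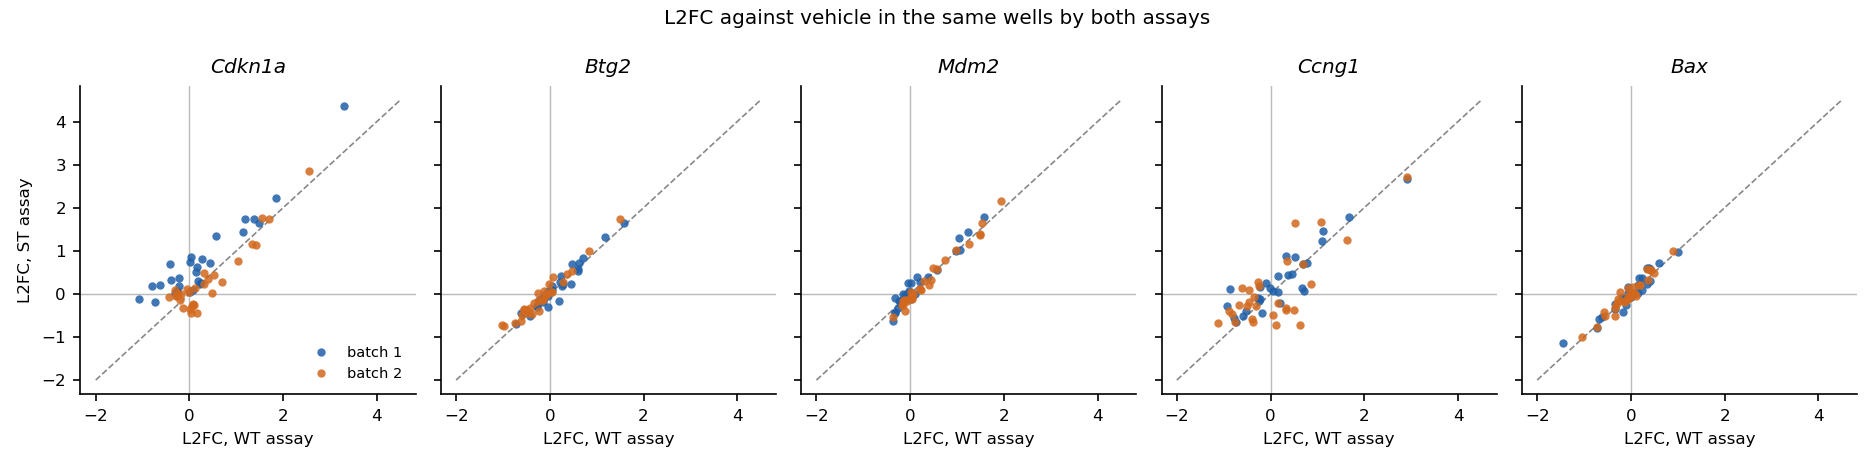
L2FC against vehicle by WT assay (horizontal) and ST assay (vertical) for the 5 members tested in both, 1 point per treatment or medium, blue for batch 1 and orange for batch 2. The dashed line marks equal values and grey lines mark 0. Points of Mdm2, Btg2 and Bax follow the dashed line, and those of Ccng1 in batch 2 scatter to either side of it (r = 0.762).

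The members did not share one pattern over the 30 conditions. As a description over conditions that share plates and vehicle, and with no test, r of mean log2 CPM was 0.62 and 0.71 between Cdkn1a and Mdm2 in batch 1 and 2, 0.71 and 0.72 between Bax and Phlda3, and -0.01 and -0.15 between Mdm2 and Btg2. A single member compared between the batches had r from 0.68 (Ccng1) to 0.92 (Zmat3). Of all 10191 genes, the 5 with the pattern most like Cdkn1a, by the lower r of the batches, were Csgalnact2 (0.87), Tigar (0.86), Sympk (0.85), Rnf19b (0.84) and Zranb1 (0.83). Among those most like Mdm2 were Btg3 (0.81), Nudt11 (0.76), Cnot10 (0.76) and Raet1e (0.76).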

How the data were processed

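Primary hepatocytes of male Wistar rats were lysed after 24 h, and both TempO-Seq assays were run on the same lysates (372 libraries in all). Per the labels, detector oligos were ligated, amplified and sequenced. The submitters' processing notes name STAR 2.5.3a and genome build rn6. The deposited values are raw counts per probe and well, not normalised. Wells were grouped by chemical, concentration and batch from the labels.

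Probe counts were summed per gene symbol, and CPM is the count per 1000000 reads over all probes of a well. Genes whose mean count reached 10 were fitted per batch over all 30 conditions in edgeR 4.0.16 (R 4.3.3, quasi-likelihood test, TMM scaling, Benjamini-Hochberg adjustment over all genes tested). L2FC comes from this fit, so it can differ from a ratio of CPM, and its SE is L2FC divided by the root of F. A call is an adjusted p under 0.05, and a call in both batches needs the same sign in each. On simulated counts with 200 genes changed 2-fold among 10189 genes, 89.5% were recovered for 2 µM doxorubicin in batch 1. DESeq2 1.42.0, other scalings, no filter, the ST assay, left-out wells and vehicle of the same plate were tried as alternatives. The ST fit without filter, same-plate ST vehicle, batch differences beyond doxorubicin and the comparison of vehicle plates were added after the data were seen.

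The members, the other pathway genes and the cell type markers were chosen with earlier results of these data known. All members are named, the regulators and topoisomerase II genes, and of the other targets those called in both batches. Genes like a member in pattern are the 5 with the highest lower r of the batches. A regulator and a gene of the pattern list are not reported here. Top2b, Bbc3, Eda2r and Tp53inp1 were not analysed here.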

Additional observations from a re-analysis of the deposited data

Results flagged for a closer look

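Differences between the batches were tested for all members in all 29 comparisons with vehicle, 203 pairs in the WT assay and 145 in the ST assay, by edgeR with adjustment over all genes. In the WT assay 2 pairs were called, both for Mdm2, where 2.36% of the pairs of all genes were called. With 4000 µM ranitidine the L2FC of Mdm2 was 1.00 higher in batch 2 (adjusted p = 0.00275), at -0.05 in batch 1 and 0.97 in batch 2. The ST assay gave 0.68 for the same difference (adjusted p = 0.0340), from 0.25 to 1.02. With 400 µM diclofenac it was 0.72 higher in batch 2 (adjusted p = 0.0456), from 1.24 to 1.93.

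The ST assay called 7 pairs, where 4.2% of the pairs of all genes were called, so both shares are near or below the background. For Cdkn1a all 5 differences were negative, with a lower L2FC in batch 2. The difference was -1.53 with 10000 µM acetaminophen (adjusted p = 8.48e-06, from 4.37 to 2.86), -1.13 with 2000 µM naproxen (adjusted p = 0.00378, from 1.33 to 0.27) and -1.01 with 10000 µM valproic acid (adjusted p = 0.00445, from 1.75 to 0.75). With simvastatin the values had opposite signs in the batches, and the difference was -1.04 at 2.4 µM (adjusted p = 0.0289, from 0.63 to -0.36) and -1.10 at 60 µM (adjusted p = 0.0118, from 0.81 to -0.25). By WT assay none of these 5 differences of Cdkn1a was called. For Bax the difference with 4000 µM ranitidine was -0.60 (adjusted p = 0.0174, from 0.98 to 0.48). Comparisons of one batch share their vehicle wells.

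Among 26 groups of 6 vehicle or medium wells, 1 held a well far from the others. In the ST medium wells of batch 2, the highest Ccng1 value was 1199 CPM and the others were 674 to 842 CPM, a gap of 0.680 of the range. Chance flags about 1 in 20 such groups.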

How the results depend on the processing

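The count of members that rose with 2 µM doxorubicin in both batches was 2 to 4 in all settings (3 as reported), 2 to 3 with wells left out, and that with 0.08 µM was 0 in all of them. Requiring an absolute L2FC of at least 1 left 1 member for 2 against 0.08 µM, and over the 28 treatments 14 higher calls and 1 lower call. The lower calls, 13 as reported, were 23 with library size only, 7 by ST assay, which tests fewer members, and 29 in a fit of both batches with batch as a term. The 4 other pathway genes became 1 by ST assay, which has probes for only 2 of the 4, and 2 to 3 with replicates left out.

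Signs turned for values that were not called and for 1 of the 40 calls. With single wells left out, L2FC of Ccng1 with 2 µM doxorubicin in batch 2 ran from -0.086 to 0.82, and with same-plate vehicle it was -0.28. With 0.08 µM in batch 1, Cdkn1a ran from -0.058 to 0.46, Ccng1 from -0.23 to 0.53 (-0.03 without 1 vehicle well) and Btg2 from -0.066 to 0.19 (also -0.04, -0.05 and -0.000436). Ccng1 in batch 2 ran from -0.51 to 0.029, and the batch difference of Cdkn1a from -0.50 to 0.18 (also 0.0036). Of the 40 calls over all treatments, that of Zmat3 with acetaminophen changed sign in an alternative. The cause was not tested.

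No paired analysis was possible because the labels give wells no replicate numbers, and the numbers used here follow the order of deposition. The plates of batch 2 entered through vehicle of the same plate, and plate as a term was not fitted. Cdkn1a had the lowest median WT count of the 7 tested members in both batches, and Phlda3, with 0 to 14 ST counts per well, did not pass the filter of the ST assay. Without that filter its ST L2FC with 2 µM doxorubicin was 1.002 and 0.66 and was not called (edgeR, adjusted p = 0.516 and 0.443). These intervals and tests cover wells of 1 rat per batch.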
